A study of Homo sapiens with 6 samples.

Results

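The NADPH oxidases and their partner proteins were examined in EndoC-βH1 cells, an established human pancreatic beta cell line derived from fetal pancreas, before and after exposure to inflammatory cytokines. The 10 genes were taken by gene symbol, and no measured value enters that rule. They are the catalytic oxidases NOX1, NOX4, NOX5, CYBB, DUOX1 and DUOX2, the membrane subunit CYBA, the organizer NOXO1, and the maturation factors DUOXA1 and DUOXA2. Each matched 1 of 61695 loci in the authors' deposited count tables and 1 of 63707 rows in the deposited Cuffdiff gene table. Of the 6 libraries, 3 were control and 3 came from cells given IL-1β at 5, TNF-α at 10, IFN-γ at 50 and IL-17 at 100 ng/ml for 24 h, in both groups in medium with 11 mM glucose. The sample labels call the control cells unexposed at the start, whereas the extraction protocol has them without cytokines over the same 24 h, so time in culture and exposure cannot be told apart from these sources. All libraries came from 1 cell line, and nothing says that they were separate cultures, so the p-values speak of how these libraries vary, which may be technical variation alone.

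NADPH oxidases carry electrons from NADPH across a membrane to oxygen and release superoxide or hydrogen peroxide. NOX1, NOX4 and CYBB need CYBA for a stable complex, NOX1 and CYBB also need cytosolic organizers and activators, and NOX5, DUOX1 and DUOX2 carry calcium-binding domains. The DUOX enzymes leave the endoplasmic reticulum only with their DUOXA partners. Beta cells have a low capacity to remove peroxide, which is why oxidases are studied in islet inflammation.

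Only group values and a single comparison were analysed here, so no value per library can be given. Levels are in FPKM (fragments scaled to transcript length and library depth), which corrects for length, or in normalized counts per library, which does not. The mean over libraries in the authors' deposited tables came to 40881975 normalized counts. All 10 beta cell markers had counted reads, from a mean of 426 normalized counts for the IAPP locus to 216419 for CHGA in the deposited table. Among 10 leukocyte markers, MPO had 0 counted reads and 7 of the 9 in a locus of their own had a deposited mean under 2 counts. These 9 summed to 107 normalized counts in control and 98.6 with cytokines in the deposited table, most of it CD14, while CD68 shared a locus with EIF4A1. A bulk level cannot tell fewer cells of a type from less RNA per cell.

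The oxidase genes were expressed at low levels in both groups. In the deposited Cuffdiff isoform table, the named transcripts of each of the 10 genes summed to under 1 FPKM in control and with cytokines. Among genes tested in the deposited Cuffdiff gene table, the median level was 3.85 FPKM. CYBB led in control with 0.467 FPKM, followed by DUOX1 with 0.373, NOXO1 with 0.213 and CYBA with 0.168 in the deposited isoform table. The other 6 genes stood much lower there, between 0.00307 FPKM for NOX5 and 0.0158 FPKM for NOX1. With cytokines the leading gene in the deposited isoform table was CYBA at 0.625 FPKM, ahead of DUOX1 at 0.463, CYBB at 0.359 and NOXO1 at 0.266. The same 4 genes thus led in both groups, and CYBA moved from the last of them to the first. Cuffdiff's group values carry no spread between libraries in the deposited tables, so neighbours in either order cannot be said to differ. Of 84 named transcripts of these genes, 50 were listed at 0 FPKM in both groups and 2 were tested.

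**Figure D1:**
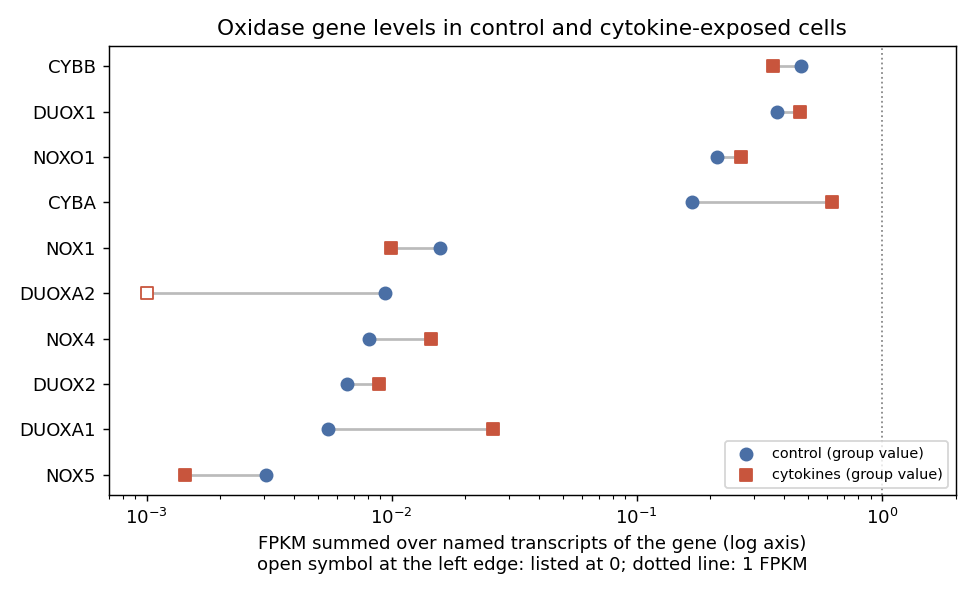
FPKM of each oxidase gene, summed over its named transcripts, in control (circles) and cytokine-exposed cells (squares), on a log axis. CYBA has the widest gap among the 4 genes above 0.1 FPKM, from 0.168 to 0.625, and all genes lie left of the line at 1 FPKM.

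Of the 10 genes, 7 lay in a locus with an adjusted p in the authors' DESeq test. At a threshold of 0.05, 1 of the 7, CYBA, was higher and 1, the locus that holds CYBB, was lower in the authors' deposited table. Over all tested loci the same rule called 37.7%, with 18.0% higher and 19.7% lower, and the 2 of 7 called here stand below that share. The share called rises with abundance, from 4.71% of loci under 10 counts to 23.7% of loci with 10 to 100 counts, with 15.0% called higher, in the deposited tables. Of the 3 oxidase loci under 10 counts (NOX4, NOX5 and DUOX2), 0 were called by DESeq, 0 had an unadjusted p under 0.05, and 0 were tested by Cuffdiff. Among the 3 loci with 10 to 100 counts (DUOX1, NOX1 and CYBA), 1 was called in the deposited table. The median log2 fold change of the 7 was -0.04, against 0.05 over all tested loci of the deposited tables. The 7 include the loci of CYBB and NOX5, which are shared with other genes. CYBB and NOX5 transcripts held 0.191% and 4.30% of the control FPKM of these loci, so the count and median are not of oxidase genes alone.

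**Figure D2:**
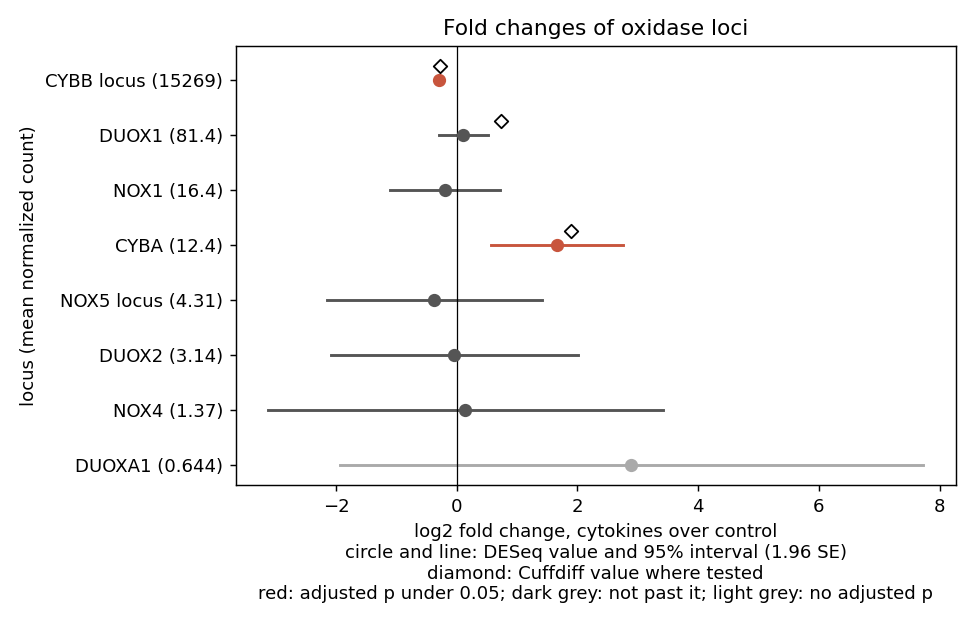
Deposited DESeq log2 fold changes (cytokines over control) with 95% intervals for the 8 loci with counted reads, ordered by mean normalized count, and Cuffdiff values as diamonds. The interval of CYBA, 0.56 to 2.75, lies above 0, and that of the CYBB locus, -0.34 to -0.26, below 0, while the other intervals cross 0.

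CYBA (chromosome 16, 88643275 to 88651083, minus strand, hg38) encodes p22phox, the membrane subunit that NOX1, NOX4 and CYBB share. Its level went from 5.99 normalized counts in control to 18.9 with cytokines, group means worked out from the authors' deposited table. The log2 fold change in the authors' deposited table was 1.66 ± 0.56 (SE), a rise of 3.16-fold with a 95% interval of 1.48 to 6.74 (DESeq, adjusted p = 0.00905). In the authors' deposited Cuffdiff gene table CYBA went from 0.168 to 0.625 FPKM, a log2 difference of 1.89 (q = 0.00181), where 35.7% of tested genes were called and 17.8% were called higher. Both tools thus placed CYBA higher with cytokines, from the same libraries and, in the deposited count table, 74.7 normalized reads in all. The gain lay almost wholly in the 6-exon coding transcript of 692 bases, at 0.153 FPKM in control and 0.565 with cytokines in the deposited isoform table (q = 0.0441), where 9.87% of tested transcripts were called. A second coding transcript of CYBA had 0 FPKM in control and 0.0599 with cytokines in the deposited isoform table, and the retained-intron forms were at 0 in both groups. Of 6 tested leukocyte markers, 0 were higher (DESeq, 0 at an unadjusted p under 0.05, 0 by Cuffdiff), and 1, the CD68 locus, was lower in the authors' deposited table. Over all tested loci 18.0% were called higher. PTPRC, ITGAM and LYZ had means of 1.69, 1.58 and 1.67 counts, and of loci under 10 counts only 4.71% were called. The median log2 fold change of the 6 was 0.40, and the 0 is no measure of leukocyte content. The summed counts of 4 fibroblast markers in loci of their own went from 574 to 1439 in the deposited table, nearly all of it COL1A1, which rose by 1.39 ± 0.06 on the log2 scale. Its relation to CYBA was not tested.

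The start of CYBA is shown because it is the only oxidase gene of a locus of its own whose level passed the test. The 250 bases before its RefSeq start (GRCh38.p14, chr16:88651054-88651303, minus strand) carry no capitals because none of 4 motifs was matched:
CYBA: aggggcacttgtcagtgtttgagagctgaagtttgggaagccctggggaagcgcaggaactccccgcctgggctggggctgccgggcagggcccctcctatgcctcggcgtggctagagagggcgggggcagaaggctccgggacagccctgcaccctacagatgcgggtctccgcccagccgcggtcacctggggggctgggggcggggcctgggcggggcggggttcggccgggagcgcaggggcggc
The letters searched on both strands, over these bases and the first 50 of the transcript, were TTCNNNGAA (the GAS element of interferon-responsive genes), the ISRE core bound by interferon regulatory factors (a pair of GAAA runs parted by any 2 bases), TATAAA and CCAAT. The window of CYBA held 72.7% G or C against a median of 58.7% over 35116 such windows. The absence of these letters says nothing about binding by any factor.

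CYBB (chromosome X, 37780018 to 37813461, plus strand, hg38) encodes gp91phox, the catalytic subunit of the phagocyte oxidase. Its locus went from 16861 to 13677 normalized counts, worked out from the authors' deposited table, at -0.30 ± 0.02 on the log2 scale (DESeq, adjusted p = 2.47e-53), where 90.9% of loci above 10000 counts were called. Nearly all of this signal comes from another gene. The assembled locus joins 7 genes, and the annotation places the read-through gene ENSG00000250349 across all of CYBB on the same strand. TSPAN7, a tetraspanin and islet autoantigen, held 96.2% of the locus FPKM in control and 95.9% with cytokines in the deposited isoform table. CYBB held 0.191% and 0.179% there. The 13-exon coding transcript of CYBB was listed at 0.467 FPKM in control and 0.359 with cytokines, a log2 difference of -0.38 (q = 0.954), in the authors' deposited isoform table. The leading TSPAN7 transcript stood at -0.28 with q = 0.0774 in the deposited isoform table, so 0 of the 9 tested transcripts of the locus passed on their own, although the locus did in both gene tables (Cuffdiff q = 2.32e-04). No unadjusted p of these transcripts but that of the leading TSPAN7 form lay under 0.05 in the deposited isoform table.

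**Figure D3:**
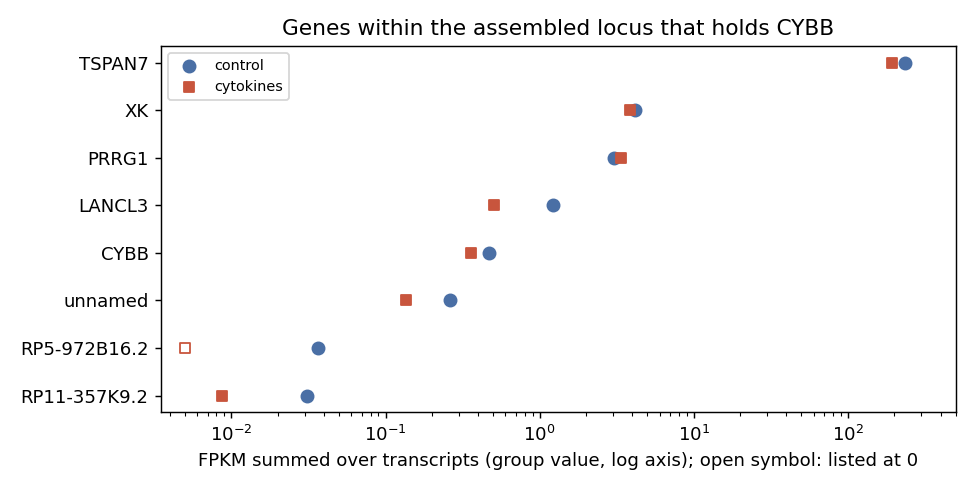
FPKM of each gene within the assembled locus that holds CYBB, summed over its transcripts, in control (circles) and with cytokines (squares), on a log axis. TSPAN7 stands at 235 FPKM in control and 193 with cytokines, and CYBB at 0.467 and 0.359.

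The region before CYBB is shown because it alone among the 13 start windows of the 10 genes held the ISRE letters. In the 250 bases before its RefSeq start (GRCh38.p14, chrX:37779809-37780058, plus strand), capitals mark matches to the ISRE core and CCAAT on either strand:
CYBB: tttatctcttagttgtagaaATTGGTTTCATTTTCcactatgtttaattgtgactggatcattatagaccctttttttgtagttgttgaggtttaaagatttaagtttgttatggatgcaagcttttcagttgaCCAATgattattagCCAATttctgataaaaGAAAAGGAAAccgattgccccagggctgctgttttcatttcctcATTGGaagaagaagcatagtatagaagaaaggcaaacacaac
The ISRE letters began 225 bases before the start on the minus strand and 86 bases before it on the plus strand, and the first adjoins a CCAAT match, so that both print as 1 run. At least 1 such match was present in 3.57% and at least 2 in 0.259% of all windows. CCAAT was matched 4 times, and 34.6% of all windows held it at least once. A match is a description of letters only. Beside these matches, IRF1 rose by a log2 value of 6.67 ± 0.03, per the authors' deposited table (DESeq, adjusted p = 0 as deposited), while SPI1, a factor of myeloid cells, had 3.24 normalized counts and a change of 1.03 ± 1.08 (adjusted p = 0.54).

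NOX1 (chromosome X, 100843324 to 100874359, minus strand), the superoxide-producing oxidase of colon epithelium, went from 17.6 to 15.3 normalized counts, worked out from the authors' deposited table. In the authors' deposited table its log2 fold change of -0.20 ± 0.46 had a 95% interval of -1.11 to 0.71 (adjusted p = 0.814). A fall of 2-fold lies within this interval and a rise of 2-fold outside it. The count and FPKM tables differed on its level. Its 16.4 mean counts over 2543 exonic bases would amount to 0.158 FPKM at this depth, whereas the deposited Cuffdiff table listed 0.0158 FPKM in control and 0.0099 with cytokines. The pseudogene HNRNPA1P26 lies inside NOX1 on the same strand, over 1092 bases, and was counted apart at 6.16 normalized counts in the deposited table. Its part in the difference was not tested.

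NOXO1 (chromosome 16, 1978917 to 1984192, minus strand), which organizes the NOX1 complex, had 0 counted reads in the deposited count table but was tested by Cuffdiff. The deposited Cuffdiff table gave 0.248 FPKM in control and 0.266 with cytokines, a log2 difference of 0.10 (q = 0.958). TBL3, on the opposite strand, overlaps NOXO1 over 4013 bases in the annotation and was counted with GFER at a mean of 1962 normalized counts in the deposited table. The libraries were made with a directional kit, per the labels, but no source used here says whether the counter used strand, and the part of this overlap in the 0 was not tested. Of 17081 loci without a counted read, 626 were tested by Cuffdiff, and 370 had at least 1 FPKM in a group of the deposited tables, so a 0 in the count table did not always mean no signal. Among transcripts of NOXO1, a 6-exon coding form of 582 bases led with 0.117 FPKM in control and 0.198 with cytokines in the deposited isoform table.

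NOX4 (chromosome 11, 89324353 to 89498187, minus strand), a constitutively active, peroxide-producing oxidase, had 8.24 normalized reads over all 6 libraries of the deposited table. Its group means of 1.31 and 1.44 counts gave 0.14 ± 1.67 on the log2 scale of the authors' deposited table, with an interval of -3.12 to 3.41 (adjusted p = 0.966). A change of 8-fold in either direction lies within this interval. Of its transcripts in the deposited isoform table, 11 of the 15 named transcripts were at 0 FPKM in both groups, and of the other 4, 2 were retained-intron forms that held 68.8% of its FPKM in control and 100% with cytokines. NOX5 (chromosome 15, 68930504 to 69062743, plus strand), activated by calcium, shared a locus with SPESP1 and RP11-809H16.2. That locus stood at 4.86 and 3.75 normalized counts and -0.37 ± 0.91 on the log2 scale, per the authors' deposited table (adjusted p = 0.829). NOX5 transcripts held 4.30% of the locus FPKM in control and 0.937% with cytokines in the deposited isoform table, and 1 assembled transcript without a gene name held 64.0% and 91.1%. These shares are of FPKM, which corrects for length, and counts do not. The part of NOX5 in the counts of the locus is thus not settled, and those counts are not of NOX5 alone.

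The DUOX genes lie side by side on chromosome 15 as 2 head-to-head pairs. DUOX2 (45092650 to 45114172, minus strand) faces DUOXA2 (45114326 to 45118421, plus strand), and DUOXA1 (45117366 to 45129938, minus strand) faces DUOX1 (45129933 to 45165576, plus strand). The start windows of DUOX2 and DUOXA2 share 253 bases, and that of DUOX1 shares 214 with 1 start window of DUOXA1. The other DUOXA1 window, which begins at 45122994, shares 0 bases with the DUOX1 window. The region before DUOX2 is shown because it holds all bases between DUOX2 and DUOXA2. Its bases from 45114326 on lie within DUOXA2 itself, so only the rest lie before both genes. In the 250 bases before the RefSeq start of DUOX2 (GRCh38.p14, chr15:45114173-45114422, minus strand), capitals mark a TATAAA match on the strand of DUOXA2, which begins 32 bases before the DUOXA2 start:
DUOX2: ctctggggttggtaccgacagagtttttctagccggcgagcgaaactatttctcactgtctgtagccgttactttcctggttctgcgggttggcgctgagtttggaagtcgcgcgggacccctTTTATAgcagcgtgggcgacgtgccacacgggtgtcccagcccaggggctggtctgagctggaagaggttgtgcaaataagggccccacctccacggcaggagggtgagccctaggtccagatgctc
TATAAA was matched in 11.5% of all windows. Neither pair held the GAS or ISRE letters, which 7.66% and 3.57% of all windows contained.

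DUOX1 was the best covered oxidase gene of a locus of its own, with 488 normalized reads over the 6 libraries of the authors' deposited table. Its group means were 78.5 and 84.3 counts, and the authors' deposited log2 fold change was 0.10 ± 0.21 with a 95% interval of -0.30 to 0.51 (adjusted p = 0.787). A rise or a fall of 2-fold lies outside this interval. The deposited Cuffdiff gene table gave 0.395 and 0.658 FPKM, a log2 difference of 0.74 (q = 0.132), beyond the upper end of the interval from counts. Transcript classes had unlike values within that sum. The 4 protein-coding transcripts went from 0.147 to 0.12 FPKM, the 6 retained-intron forms from 0.226 to 0.308, and 2 assembled transcripts without a name from 0.0223 to 0.195 in the deposited isoform table. None of these transcripts was tested by Cuffdiff, so these differences carry no error. As shares of the locus FPKM in the deposited isoform table, coding forms went from 37.2% in control to 18.2% with cytokines, retained-intron forms from 57.1% to 46.7%, and the unnamed assembled transcripts from 5.63% to 29.7%. A long noncoding RNA of the opposite strand, CTD-2651B20.1, overlaps DUOX1 over 12913 bases and was counted with SHF, a locus at -0.17 ± 0.08 (adjusted p = 0.0921) in the authors' deposited table. Its part in the DUOX1 values was not tested.

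**Figure D4:**
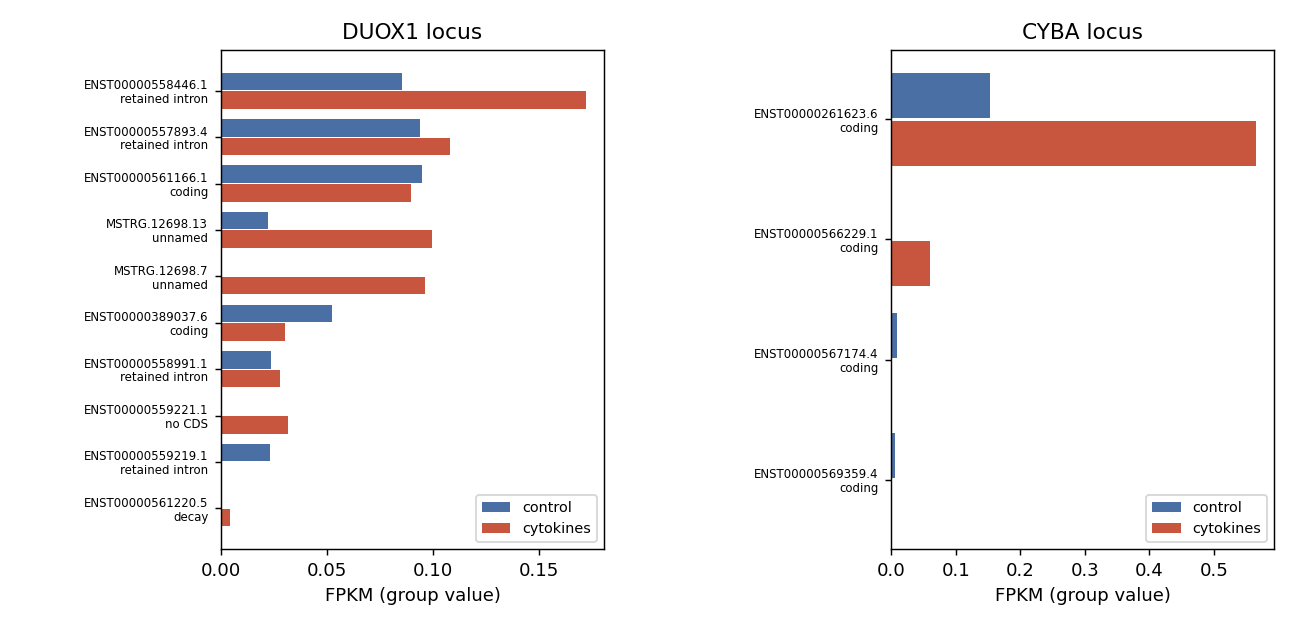
FPKM of each transcript above 0 in the DUOX1 and CYBA loci, in control and with cytokines, with the annotated class under each name. In DUOX1 the coding forms fall short of the retained-intron forms (0.147 against 0.226 FPKM in control), whereas in CYBA 1 coding form holds nearly all of the signal (0.565 of 0.625 FPKM with cytokines).

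DUOX2, the peroxide source of thyroid and gut epithelium, had group means of 3.18 and 3.1 normalized counts in the authors' deposited table, with a log2 fold change of -0.04 ± 1.04 and an interval of -2.09 to 2.01 (adjusted p = 0.984). Its levels of 0.00655 and 0.00884 FPKM were too low for Cuffdiff to test in the deposited table. DUOXA1 had 3.86 normalized reads in all, 0.153 per library in control and 1.13 with cytokines, and no adjusted p in the deposited table. No read was counted for DUOXA2, whose deposited Cuffdiff levels were 0.00941 FPKM in control and 0 with cytokines. Its 3′ end overlaps DUOXA1 on the opposite strand, within a stretch of 1056 bases. Both DUOX enzymes and both maturation factors thus stood under 1 FPKM in each group, and neither DUOX enzyme passed a test, while the DUOXA genes were not tested.

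Other components of the complexes were taken from a list of 9 subunits and maturation factors. Among them 6 had an adjusted p in the authors' deposited table, of which 1 rose, 1 fell and 4 did not pass, with a median log2 fold change of 0.04. The small GTPase RAC1, which activates NOX1 and CYBB complexes, was the most abundant at 6707 normalized counts and stood at -0.04 ± 0.03 (adjusted p = 0.277) in the authors' deposited table. NOXA1, the activator of NOX1, had 399 and 363 normalized counts and 3.61 and 2.95 FPKM in the authors' deposited tables, and a log2 fold change of -0.14 ± 0.10 (adjusted p = 0.331), far above the level of NOX1 itself. Phagocyte subunits were scarce in the deposited table. NCF1 had 5.79 mean counts and a log2 fold change of 0.67 ± 0.78 (adjusted p = 0.595) in the authors' deposited table, a level that is uncertain because it has near-identical pseudogene copies. NCF4 had a mean of 0.182 counts with no adjusted p, and NOX3, the oxidase of the inner ear, had 0 counted reads in the deposited table. RAC2, the haematopoietic RAC, stood at 0.13 ± 0.33 with 36 counts (adjusted p = 0.829) in the authors' deposited table. RAC3, counted with LRRC45, fell by 0.59 ± 0.04 on the log2 scale (adjusted p = 1.36e-52), and the locus of CYBC1 (C17orf62), a chaperone of the CYBA and CYBB dimer, counted with RAB40B, rose by 0.12 ± 0.04 (adjusted p = 0.00621) in the authors' deposited table, whereas Cuffdiff did not call it (q = 0.631).

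Around the oxidases, 5 further lists covered partners, users, suppliers and removers of the substrate and product, and transcription factors. With the subunits they made 54 genes, of which 49 were tested, 18 rose, 15 fell and 16 did not pass in the authors' deposited table, where 37.7% of all tested loci were called. Most of these genes were abundant: 31 had means of 1000 to 10000 counts, and 23 of the 31 were called, against 76.9% of all loci of that abundance in the deposited table. Their count is thus near the background and is not a result about the pathway. Of 6 oxidase partners 3 rose and 1 fell. CALR and P4HB, endoplasmic reticulum proteins that bind oxidase subunits, rose by 0.98 ± 0.02 and 0.53 ± 0.02 on the log2 scale, to 88550 and 40052 normalized counts, and the scaffold SH3PXD2B fell by 0.80 ± 0.03 in the deposited table. Among peroxidases, which use hydrogen peroxide, 0 of 5 tested rose (DESeq, 0 at an unadjusted p under 0.05, 0 by Cuffdiff) and 2 fell in the deposited table. By the authors' values PXDN, a matrix peroxidase, went from 4051 to 2287 normalized counts, at -0.82 ± 0.04 on the log2 scale (DESeq, adjusted p = 6.56e-91).

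Of 9 genes listed under NADPH supply, not all of which need supply it, 6 fell and 2 rose in the authors' deposited table. Their median log2 fold change was -0.23. Among the 6 listed genes with means of 1000 to 10000 counts, 4 fell, where 44.2% of all loci of that abundance were called lower in the deposited table. The isocitrate dehydrogenases IDH1 and IDH2 fell by 0.11 ± 0.02 and 0.53 ± 0.03, and the malic enzyme ME1 rose by 0.41 ± 0.08 in the deposited table. Cuffdiff did not call IDH1 in its deposited table (q = 0.403). Of 11 tested genes that remove superoxide or peroxide, 2 rose and 5 fell by the authors' deposited DESeq values, whose median was -0.08. Among the 10 with means of 1000 to 10000 counts, 5 fell, where 44.2% of all loci of that abundance were called lower. Cuffdiff called 3 of the 11 higher and 2 lower. It did not call SOD1 (q = 0.19), PRDX1 (q = 0.142) or PRDX6 (q = 0.195), and called TXN higher (q = 0.00805), so the balance depends on the tool. The mitochondrial superoxide dismutase SOD2 rose by 2.19 ± 0.03, from 4565 to 20870 normalized counts, while catalase (CAT) fell by 0.56 ± 0.05 and the peroxiredoxin PRDX2 by 0.40 ± 0.03 in the authors' deposited table. All 12 transcription factors were tested, and 10 rose and 0 fell (DESeq, 0 at an unadjusted p under 0.05, 0 by Cuffdiff), and the median was 2.06 in the deposited table. Over all tested loci 18.0% were called higher. Of the 8 factors with means of 1000 to 10000 counts, 7 were called, 7 higher and 0 lower. Of all loci of that abundance, 76.9% were called in either direction, with 44.2% called lower. The list was chosen with earlier results of these data known, so its count is not a result about these factors. The 2 not past the threshold were SPI1, given above, and HIF1A, counted with SNAPC1, at 0.02 ± 0.03 (adjusted p = 0.687) in the authors' deposited table.

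**Figure D5:**
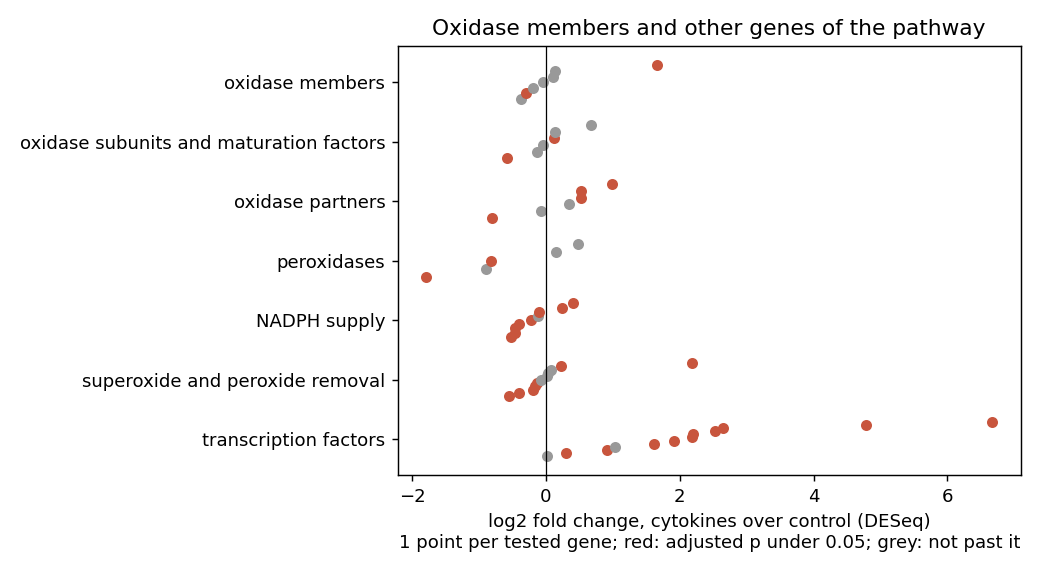
Deposited log2 fold changes, with 1 point per tested gene, for the oxidase members and the 6 lists of other pathway genes. Transcription factors reach 6.67 (IRF1), CYBA at 1.66 is the highest of the oxidase members, and the other oxidase points lie between -0.37 and 0.14. The points of CYBB and NOX5 are for loci shared with other genes.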

How the data were processed

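Poly(A) RNA of 3 control and 3 cytokine libraries was sequenced. Per the submitters' processing notes, the tools included DESeq, Cuffdiff 2.2.1, StringTie and STAR 2.5.2b, besides FastQC 0.10.1 and bcl2fastq, and the build was hg38. The sources used here name no read counter, strand setting for counting or annotation, though the library kit was directional per the labels. The deposited signal is a mean of normalized counts over the 6 libraries, as the authors' column names have it. The deposited log2 values are fold changes of cytokines over control and their SE, and the deposited score is the test statistic. Deposited p-values come from the authors' DESeq table and q-values from their Cuffdiff tables, both called at 0.05. Deposited FPKM values stand for whole groups, per the file headers.

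No values per library were analysed, so the planned tests on them were not run. Group means were worked out from the mean and fold change, and 95% intervals are 1.96 SE either side. Genes were matched by symbol, then by older symbols. Coordinates and transcript classes came from GENCODE release 44, promoter windows (250 bases before to 50 after a start) from RefSeq, GRCh38.p14, with all 10 genes matched. Depth limits precision: 3 of the oxidase loci with an adjusted p had under 10 counts. All 10 members, and genes sharing their loci, were named, with the first list in full and, from the other lists, the 2 most abundant called genes and the largest change each way (genes named besides these were chosen after their values were seen, and some genes that the lists count are not reported here by name). The members and lists were chosen with earlier results of these data known. Benjamini-Hochberg adjustment and group means were tested on simulated data. Scripts ran in Python 3.11.15 with matplotlib 3.10.9, scipy 1.17.1, numpy 2.4.6 and pandas 2.3.3. Of the marker lists not counted in the report, fibroblast markers had 1 of 5 tested genes higher and 0 lower, endothelial markers 0 of 2 called, and duct and acinar markers 1 higher and 1 lower of 4, all in the authors' deposited DESeq table. Beta cell markers had 3 higher and 5 lower of 10.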

Additional observations from a re-analysis of the deposited data

How the results depend on the processing

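The rise of CYBA kept its direction and its side of the threshold under every alternative run on the gene tables: 1.71 after re-centring on loci of at least 100 counts (adjusted p = 0.00681) and 1.89 in the authors' deposited Cuffdiff table. At a q under 0.01 its transcript was no longer called, leaving 0 transcripts. The 1 lower call, at the CYBB locus, became 0 with a 2-fold minimum and 0 over loci holding no other gene. For CYBB's own transcript the value was -0.38 (q = 0.954), an alternative chosen after seeing the data. Also chosen after seeing the data, the protein-coding transcripts of DUOX1 alone gave -0.29 with no test, against 0.10 for its locus, and the cause was not tested. DUOX2 went from -0.04 to 0.01 after re-centring, both far within its SE. With a 2-fold minimum, 9 of the 18 higher and 1 of the 15 lower pathway genes met the rule, since that alternative also asks for size. The other alternatives moved these counts by at most 1.5 times, the farthest being 10 lower pathway genes by Cuffdiff. No paired analysis was possible because the deposited tables used here hold no values per library, and leaving out replicates in turn was not run for the same reason. Depth limits NOX4, NOX5, DUOX2, DUOXA1 and DUOXA2 most.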
